A study of Mus musculus with 4 samples.

Results

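The cells described here were tumor macrophages with many transcripts of both complement C1q and MHC class II genes, taken from mammary tumors of 4 mice. They were chosen from their counts of unique molecular identifiers (UMIs, each standing for 1 captured RNA molecule). A barcode was kept with at least 2000 UMIs and at most 20% mitochondrial UMIs, and 20892 barcodes were kept in all. A kept barcode was a member when, per 10000 UMIs, it held at least 10 UMIs of C1qa, C1qb and C1qc and at least 50 of Cd74, H2-Aa, H2-Ab1 and H2-Eb1. It also had to hold fewer than 5 of Mmp12, fewer than 5 of the resident macrophage genes Folr2, Cd163, Lyve1 and F13a1, fewer than 5 of the epithelial genes Epcam, Krt8 and Krt18, and no UMI of Cd3e. In all, 2679 of the 20892 kept barcodes were members: 396 and 570 in the Cre- tumors (replicates 1 and 3), 744 and 969 in the Cre+ tumors (replicates 2 and 4). Another 699 barcodes met every limit but held fewer than 50 class II UMIs per 10000, and these class II-low macrophages (136, 59, 192 and 312 in replicates 1 to 4) were the comparison cells within each tumor.

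All mice carried the MMTV-PyMT transgene, which drives the polyoma middle T antigen in mammary epithelium, and floxed Frmd8 alleles (Frmd8 fl/fl), and were littermates taken at their endpoint at 17 to 18 weeks of age. The MMTV-Cre-; Frmd8 fl/fl; PyMT mice (Cre-, replicates 1 and 3) had no recombinase, whereas the MMTV-Cre+; Frmd8 fl/fl; PyMT mice (Cre+, replicates 2 and 4) carried Cre under the MMTV promoter, described as acting in luminal epithelium. The macrophages were therefore cells around the targeted epithelium and not the intended target of Cre. One tumor library per mouse was made with a droplet 3' kit after cell sorting, and the 4 libraries held between 112729231 and 157662955 UMIs. Cre+ replicate 4 was processed with Cell Ranger 4 and deposited with all 2582424 barcodes, the other libraries with Cell Ranger 6.1.2 and 7020 to 8017 barcodes, so for this library the software version and the mouse cannot be told apart. Of the member barcodes, 1 was shared between replicates 1 and 2, and no other pair of libraries shared any.

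MHC class II molecules present peptides taken up from outside the cell to CD4 T cells. The alpha and beta chains (H2-A and H2-E in mice) assemble with the invariant chain Cd74, proteases such as cathepsin S cut the invariant chain, and H2-DM then exchanges its last fragment for peptides, an exchange tuned by H2-O. The transactivator CIITA switches on these genes together through factors bound to the X and Y boxes of their promoters. C1q, the first component of the classical complement pathway, is made largely by macrophages, and C1q-rich macrophages are common in solid tumors, where some of them carry much class II and others little.

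Promoters of the class II genes are shown because the members were chosen on class II transcripts and most genes of this pathway were higher in members in the comparison that follows. Each sequence covers 130 to 41 bases before the gene start on the gene's strand (RefSeq, GRCm38.p6), with the Y box core GATTGG and the X box run AACNNATGATG in capitals. H2-Aa, the A alpha chain, and H2-Eb1, the E beta chain, belong to the rule, H2-DMb1 is the beta chain of the peptide exchanger, and H2-Ob is the beta chain of its modulator.
H2-Aa, chr17:34287864-34287953, minus strand: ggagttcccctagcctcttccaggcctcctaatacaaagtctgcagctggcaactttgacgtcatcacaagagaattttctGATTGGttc
H2-Eb1, chr17:34305737-34305826, plus strand: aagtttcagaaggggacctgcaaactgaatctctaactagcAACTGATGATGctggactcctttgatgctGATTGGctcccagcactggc
H2-DMb1, chr17:34153061-34153150, plus strand: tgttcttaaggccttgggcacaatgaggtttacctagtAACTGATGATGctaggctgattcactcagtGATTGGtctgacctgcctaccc
H2-Ob, chr17:34238775-34238864, plus strand: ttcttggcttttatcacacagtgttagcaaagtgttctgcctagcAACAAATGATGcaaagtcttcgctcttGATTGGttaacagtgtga
Of 12 class II genes looked for, 8 had a promoter entry. On either strand of the 250 bases before the start, GATTGG was present in all 8, compared with 14.6% of 32851 promoters. The longer run AACNNATGATG was present in 4 of the 8, compared with 0.119% of all promoters, but its letters were chosen after these sequences were read. In H2-Eb1, H2-DMb1 and H2-Ob the X run began 89, 92 and 85 bases and the Y box 60, 62 and 58 bases before the start, and in H2-DMb2, the fourth gene with both, 121 and 91 bases before it. These matches are a description of the sequence and not of factor binding.

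The class II sum that separated the cells spread over a wide range with cells on both sides of the limit. The classes are therefore described as ranges of a score, and whether they are separate populations was not tested. Members held a median of 429, 601, 387 and 327 class II UMIs per 10000 in replicates 1, 2, 3 and 4, and class II-low macrophages 4.75, 9.82, 7.58 and 7.83. Near the limit, 42 members lay between 50 and 60, and 60 class II-low macrophages between 40 and 50. These values chose the cells and carry no test. C1q was alike across libraries, with medians of 129, 160, 150 and 164 UMIs per 10000, and 11 members lay between 10 and 12.

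**Figure D1:**
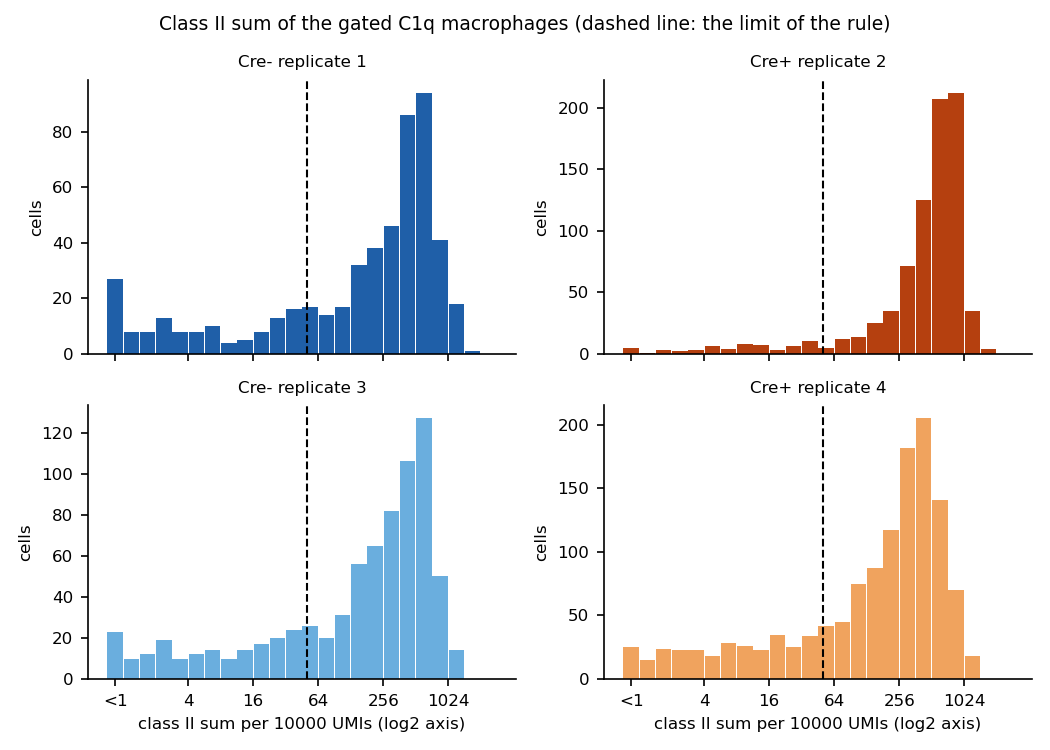
Distribution of the class II sum (Cd74, H2-Aa, H2-Ab1 and H2-Eb1, UMIs per 10000, log2 axis) over gated macrophages of each library, with the limit of 50 dashed. Most cells lie well above the limit in all 4 libraries, with a tail of low values that reaches across the limit.

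The invariant chain made up the largest part of the class II transcripts. Cd74 accounted for 44.2%, 45.9%, 45.0% and 46.7% of the class II UMIs of members in replicates 1 to 4. H2-Ab1, the A beta chain, gave 19.4% to 21.1%, H2-Aa 17.5% to 19.0% and H2-Eb1 15.8% to 16.6%. The proportions of the 4 genes thus varied by a few percentage points between mice, while the summed level ranged from 33685 CPM (UMI counts scaled to a common total over all UMIs of the summed cells) in Cre+ replicate 4 to 57815 in Cre+ replicate 2.

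Markers outside the rule bore out a macrophage identity. Csf1r, the receptor of the macrophage growth factor CSF1, stood at 721, 710, 613 and 528 CPM in members of replicates 1 to 4. Cd68, a lysosomal protein of macrophages, stood at 512, 544, 504 and 538 CPM, and Adgre1, which encodes F4/80, at 284, 298, 274 and 195 CPM. The monocyte gene Ly6c2 stood at 31.9, 9.88, 21.5 and 16.6 CPM, and Ccr2, the chemokine receptor of recruited monocytes, stood at 247, 244, 251 and 68.7 CPM.
Of 8 dendritic cell markers, 7 did not exceed 8.6 CPM in members of any library, the highest being Cd209a in replicate 3, and Batf3, a transcription factor, stood at 41.9, 52.6, 46.7 and 43.8 CPM. Flt3, the growth factor receptor of conventional dendritic cells, did not exceed 1.2 CPM in members. In class II-high cells under the C1q limit Flt3 stood at 106, 71.2, 78.7 and 42.0 CPM. Cd79a, a subunit of the B cell receptor complex, did not exceed 1.6 CPM in members. Ighm, the immunoglobulin mu chain, was the most abundant B cell marker at 112, 131, 99.1 and 111 CPM, which was below the 192, 113, 112 and 224 CPM of T cell barcodes except in replicate 2. Its level in class II-low macrophages was lower than in members of every library, at 13.7, 64.6, 59.1 and 83.9 CPM.

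Compared with class II-low macrophages of the same tumors, members had higher levels of class II processing genes, immediate early genes and several genes of the interferon gamma response. They had lower levels of several genes of lipid-associated and resident macrophages. Some cell cycle genes were also lower, but none of these passed without replicate 1, 2 or 3. Without Cre- replicate 1 no interferon gamma response gene passed, 1 lipid-associated gene fell, and 5 immediate early genes rose. Because cells were divided on class II counts, the p-values describe agreement between mice on the genes outside the rule, and the 16 rule genes were taken out before testing. Of 11162 genes tested, 561 (5.03%) were higher and 324 (2.9%) lower in members, 885 (7.93%) in all, at an adjusted p under 0.05 in edgeR's quasi-likelihood test with each library as a block. The CPM ratio of members to class II-low macrophages had a median of -0.14 on the log2 scale, against 0.0024 for the fitted changes, which are scaled. With this shift, CPM was higher in all 4 libraries for 9.85% of genes and lower in all 4 for 28.5%. The number of calls rested most on Cre- replicate 1: without it 105 genes were higher and 36 lower, whereas without Cre+ replicate 4 the counts were 532 and 433.

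Of the 15 class II pathway genes outside the rule that were tested, 9 rose and 2 fell, with a median log2 change of 0.40 against 0.0024 over all genes tested. Ciita, the class II transactivator, stood at 79.0, 98.7, 59.5 and 38.0 CPM in members and at 4.46, 5.03, 4.24 and 0.408 CPM in class II-low macrophages of replicates 1 to 4. The groups did not overlap, and the fitted log2 change was 4.58 (SE 0.28, n = 4 mice, edgeR adjusted p = 0.000689). H2-DMb1 stood at 603, 673, 623 and 627 CPM against 96.6, 94.8, 98.7 and 86.5 CPM. Its level was thus nearly the same in every mouse within a class, and the log2 change was 2.87 (SE 0.08, edgeR adjusted p = 2.33e-05).
H2-DMa, the alpha chain of the same exchanger, stood at 599, 638, 617 and 578 CPM against 168, 164, 190 and 193 CPM. H2-Oa, the alpha chain of its modulator, was much less abundant, with 7.79 to 18.4 CPM in members and 0.371 to 1.68 CPM in class II-low macrophages. The remaining genes that rose were H2-DMb2, H2-Ob, Ctss, which encodes cathepsin S, the thiol reductase gene Ifi30 and the ubiquitin ligase gene March1. Their log2 changes lay between 0.37 and 1.56. H2-DMb1 and H2-DMb2 are near-identical copies, so the division of reads between them is uncertain.
The genes that fell were the cathepsins Ctsl and Ctsb, lysosomal proteases with many substrates. Ctsl stood at 306, 343, 342 and 266 CPM in members and 1184, 991, 825 and 514 CPM in class II-low macrophages, a log2 change of -1.29 (SE 0.16, edgeR adjusted p = 0.00612). Without one of the libraries, 5 to 9 of the list rose and 1 or 2 fell.

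Shares of cells gave the same picture for H2-DMb1. When each cell was thinned to 2000 UMIs, 63.6%, 67.3%, 64.9% and 65.2% of members held a UMI of it, compared with 18.4%, 10.2%, 19.3% and 18.3% of class II-low macrophages. T cell barcodes, which should lack the gene, gave 1.2%, 2.5%, 0.3% and 1.2%. Unthinned, the shares were 92.9%, 94.0%, 93.3% and 93.7% in members and 59.6%, 67.8%, 70.8% and 66.0% in class II-low macrophages, which had more UMIs per cell.

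Changes in neighbouring antigen presentation and interferon genes were smaller. In the class I pathway, which presents peptides from inside the cell, 4 of 18 genes tested rose and none fell. H2-T23, a nonclassical class I molecule, stood at 290, 339, 220 and 330 CPM in members and 191, 255, 113 and 236 CPM in class II-low macrophages, and the proteasome and transporter genes Psme1, Tap2 and Psmb8 rose by 0.35 to 0.52 on the log2 scale. Of 22 interferon gamma response genes, 6 rose and none fell: the guanylate-binding protein genes Gbp2, Gbp3 and Gbp4, the transcription factor genes Irf1 and Irf8, and the receptor gene Ifngr1. Irf8 stood at 280, 337, 228 and 318 CPM against 206, 243, 206 and 221 CPM, a log2 change of 0.53 (SE 0.08, edgeR adjusted p = 0.0129). Cxcl9, a T cell attracting chemokine induced by interferon gamma, stood at 50.2, 38.2, 7.97 and 14.3 CPM against 0.371, 10.1, 2.67 and 11.02 CPM and did not pass (adjusted p = 0.103). None of the class I genes and none of the interferon gamma response genes passed without Cre- replicate 1, and 6 and 8 passed without Cre+ replicate 4. Among 19 type I interferon response genes only Isg15 rose, a share close to that over all genes, and it did not pass without replicate 1, 2 or 3.

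Among 15 co-stimulation and checkpoint genes, 3 rose and 2 fell, but none passed without Cre- replicate 1, and 1 rose and 1 fell without Cre+ replicate 2. Cd86, a ligand of CD28 on T cells, stood at 194, 229, 176 and 166 CPM in members and 97.7, 111, 131 and 100 CPM in class II-low macrophages, with no overlap between the groups (log2 change 0.92, SE 0.11, edgeR adjusted p = 0.00563). Havcr2, which encodes TIM-3, and Tgfb1 rose by 0.48 and 0.39. Cd40, at 19.3 to 30.3 CPM in members, and Cd274, which encodes PD-L1, at 10.3, 12.6, 10.6 and 24.97 CPM, did not pass. In the macrophage identity list of 18 genes, 4 rose, among them Csf1r and the lipopolysaccharide co-receptor gene Cd14, and 3 fell, namely Maf, Lyz2 and Cd68. None of this list passed without Cre- replicate 1, and 1 rose and 1 fell without Cre+ replicate 2.

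The genes with the largest increases were of mixed function. Retnla, a secreted resistin-like protein of alternatively activated macrophages, had the largest log2 change at 5.73 (SE 0.33, edgeR adjusted p = 0.000591), with 436, 536, 384 and 59.4 CPM in members against 1.86, 21.0, 9.81 and 1.22 CPM. This came from very few cells. The 10 members with most Retnla held 99.1%, 92.0%, 95.4% and 98.3% of its UMIs, and the share of members with any UMI (8.08%, 29.8%, 21.9% and 2.99%) was close to that of class II-low macrophages (3.68%, 30.5%, 18.2% and 2.56%) and of T cell barcodes (4.12%, 26.7%, 17.5% and 1.93%, at 6735, 7200, 5982 and 11899 median UMIs). The share with any UMI therefore lay at or near background. Ear2, an eosinophil-associated ribonuclease, showed the same concentration, with 84.2% to 98.5% of its UMIs in 10 members. H2-M2, another nonclassical MHC molecule, stood at 46.0, 118, 12.3 and 6.79 CPM against 3.34, 3.35, 1.56 and 0.272 CPM and was spread unevenly between mice. Of its UMIs, 10 members held 64.4%, 26.7%, 90.4% and 71.8%, and 11.6%, 18.7%, 3.68% and 3.92% of members held any.
Other genes were carried by many members. Qpct, a glutaminyl cyclase that modifies the ends of chemokines and other peptides, stood at 54.2, 69.3, 60.1 and 80.002 CPM in members and 13.4, 14.3, 12.9 and 17.8 CPM in class II-low macrophages. Its log2 change was 2.29 (SE 0.10, edgeR adjusted p = 0.000161), and 34.3% to 54.1% of members held a UMI of it against 13.5% to 20.8% of class II-low macrophages. Klrb1b, a C-type lectin receptor, Ocstamp, a membrane protein needed for osteoclast fusion, and Il1r2, the decoy receptor of interleukin 1, had log2 changes of 3.74, 3.40 and 2.53. Capn3, a calpain protease, and Fam189a2 also rose, by 2.53 and 2.54. Of the 15 genes named for their increase, 12 passed in every fit that left out a library, and Il2ra, the alpha chain of the interleukin 2 receptor, Dnase1l3, a secreted nuclease, and the collagenase gene Mmp13 did not.

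**Figure D2:**
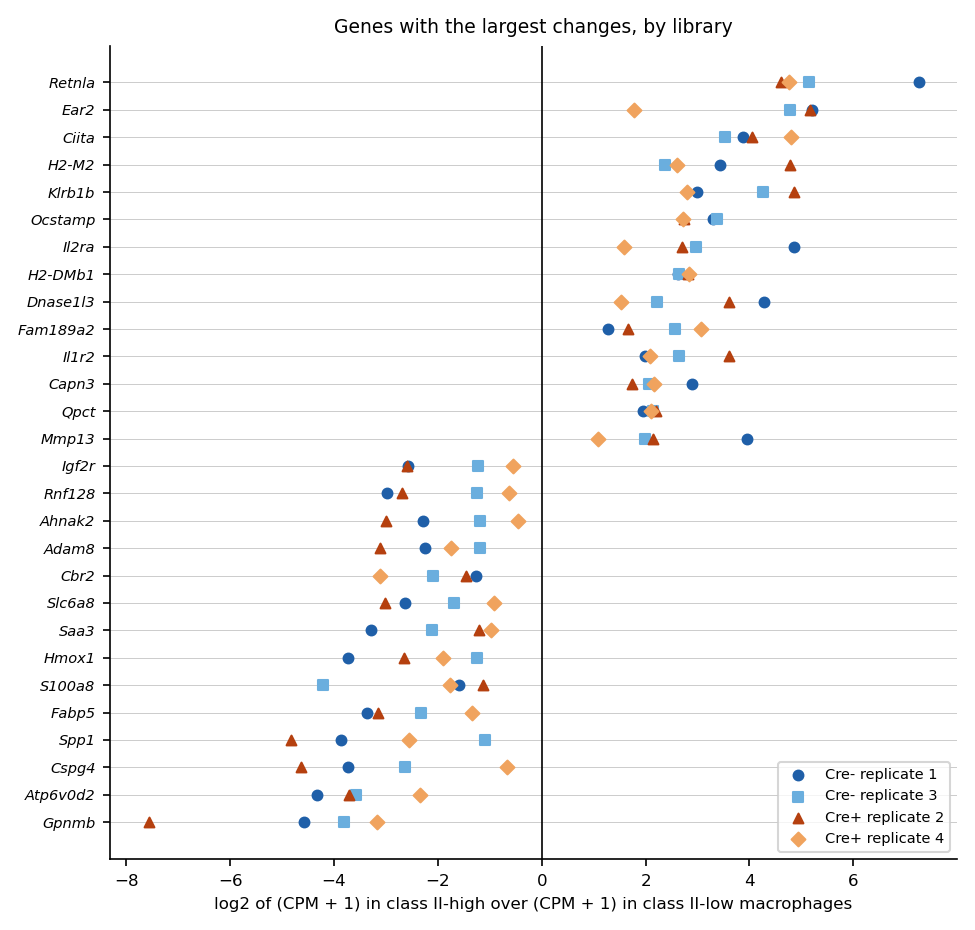
log2 ratio of CPM + 1 in members to CPM + 1 in class II-low macrophages for 14 of the genes with the largest increase and 14 of those with the largest decrease, with 1 marker per library. The genes were chosen to lie on the same side of 0 in all 4 libraries, and the spread of the markers shows how far the libraries differ in size of change.

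Immediate early and stress genes, which respond within minutes to stimuli and to tissue dissociation, made up the list with the largest share of increases among those with at least 3 genes tested. Of 18 tested, 13 rose and none fell, with a median log2 change of 0.87. Fos stood at 1737, 2828, 1525 and 1399 CPM in members and 823, 1494, 995 and 1082 CPM in class II-low macrophages. Egr1, an inducible transcription factor, stood at 480, 895, 528 and 301 CPM against 83.2, 457, 317 and 145 CPM, and Btg2 changed by 1.39 (SE 0.13, edgeR adjusted p = 0.00272). The counts were 5 without Cre- replicate 1 and 16 without Cre+ replicate 4. Whether this list moved with handling of the tumors was not tested.

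Chemokine genes moved both ways. Ccl3 and Ccl4, inflammatory chemokines, stood at 1507, 1785, 1655 and 830 CPM and at 3871, 4586, 3908 and 2417 CPM in members, and rose by 1.16 (SE 0.11) and 1.18 (SE 0.21) on the log2 scale. Ccl2 and Ccl7, ligands of the monocyte receptor CCR2, and Pf4, a platelet and macrophage chemokine, were the 3 of 18 chemokine genes that fell. Ccl7 stood at 307, 159, 302 and 353 CPM in members and 817, 475, 681 and 1888 CPM in class II-low macrophages. Of 17 chemokine and cytokine receptor genes 5 rose, namely Il10ra, Tgfbr1, Csf1r and the GM-CSF receptor chains Csf2ra and Csf2rb, and none fell. Without Cre- replicate 1, 1 receptor gene and 1 chemokine gene rose and no chemokine gene fell. Without Cre+ replicate 2, 2 receptor genes rose, and 1 chemokine gene rose and 3 fell. Ccr2 was higher in members of replicates 1, 2 and 3 but not of Cre+ replicate 4, where class II-low macrophages had 79.7 CPM, and it did not pass (adjusted p = 0.0835). Itgax, which encodes CD11c, rose by 1.10 (SE 0.17), whereas Itgam, which encodes CD11b, changed by -0.65 (SE 0.15).

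Several genes of lipid-associated macrophages, a state described in fat tissue and tumors with active lysosomal and lipid handling, were lower in members. Of 20 tested, 10 fell and none rose, with a median log2 change of -0.75. Spp1, which encodes osteopontin, stood at 783, 331, 1262 and 108 CPM in members and 11468, 9428, 2703 and 637 CPM in class II-low macrophages. Gpnmb, a glycoprotein of lysosome-rich macrophages, stood at 27.0, 4.94, 6.16 and 1.04 CPM against 665, 1129, 98.97 and 17.4 CPM. Both were lower in members of every library, but their levels in class II-low macrophages differed widely between mice and were lowest in Cre+ replicate 4. A few cells carried much of both levels: the 10 class II-low macrophages with most Gpnmb held 77.5%, 97.0%, 92.8% and 99.2% of its UMIs, and those with most Spp1 61.2%, 90.7%, 50.8% and 75.8%. For Spp1 the same held in members, at 79.8%, 71.3%, 56.6% and 59.4% in 10 cells. Their log2 changes were -2.99 (SE 0.59, edgeR adjusted p = 0.0273) and -5.10 (SE 0.63, adjusted p = 0.00596).
Trem2, the lipid-sensing receptor of this state, stood at 407, 485, 509 and 392 CPM in members and 1174, 1286, 872 and 505 CPM in class II-low macrophages. Fabp5, a fatty acid carrier, Ctsd, the protease cathepsin D, and Lgals1, which encodes galectin-1, fell by 2.43, 1.43 and 1.19. For Fabp5, 10 class II-low macrophages held 63.6%, 77.8%, 65.9% and 68.8% of its UMIs. Apoe, the lipoprotein gene often listed with them, was among the most abundant transcripts and did not pass, with 22089, 35375, 22858 and 19108 CPM in members and 21498, 32333, 26304 and 11738 CPM in class II-low macrophages. The number of genes that fell was 1 without Cre- replicate 1, 4 without Cre+ replicate 2, 8 without Cre- replicate 3 and 14 without Cre+ replicate 4.

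Several resident macrophage genes outside the rule were also lower in members. Of 13 tested, 6 fell and none rose, with a median log2 change of -1.31. Stab1, a scavenger receptor, stood at 150, 112, 154 and 123 CPM in members and 345, 299, 323 and 284 CPM in class II-low macrophages, a log2 change of -1.09 (SE 0.08, edgeR adjusted p = 0.00111). Igf1, the growth factor, stood at 56.0, 58.5, 39.4 and 39.2 CPM against 214, 152, 121 and 80.9 CPM. Gas6, a ligand of the receptors AXL and MERTK, also fell, while its receptor gene Axl rose by 0.77 (SE 0.09). Both classes had been limited to fewer than 5 UMIs per 10000 of 4 other resident genes, so these differences lay within cells low in those genes. Between 4 and 6 of the list fell without one of the libraries.

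**Figure D3:**
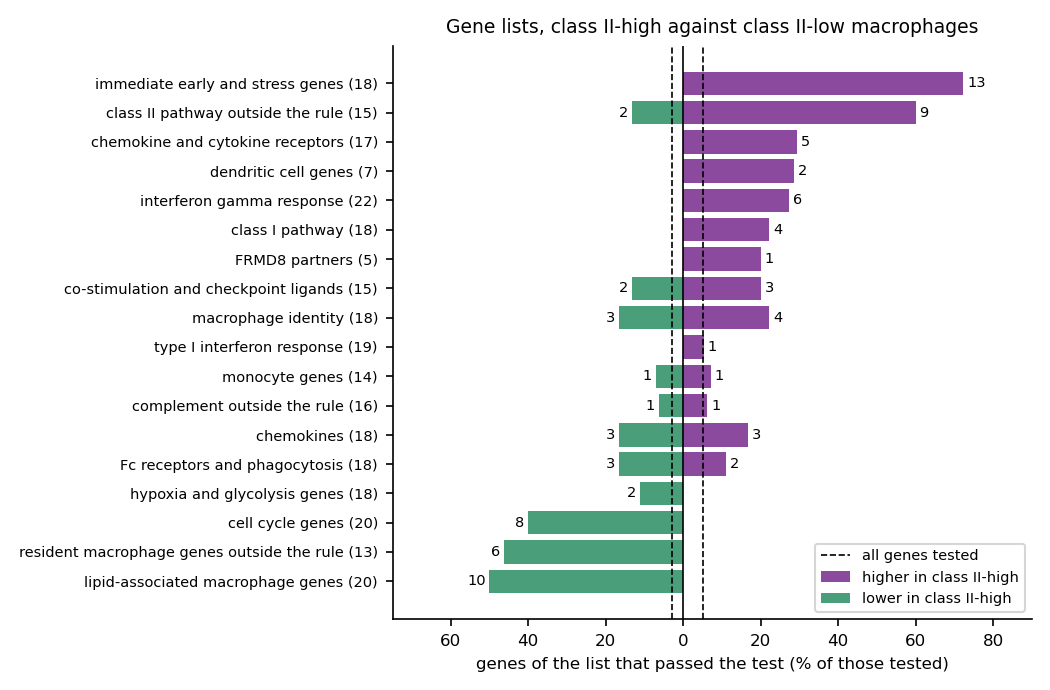
Percent of the tested genes of a list that were higher or lower in members than in class II-low macrophages, with the counts on the bars. Dashed lines give the percent over all genes tested (5.03% higher, 2.9% lower). Lists with very few genes tested, and lists in which no gene passed, are not drawn. Among the lists drawn, immediate early and class II pathway genes have the largest shares of increases, while 10 of 20 lipid-associated and 6 of 13 resident macrophage genes were lower.

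The genes named for the largest decreases included Atp6v0d2, a subunit of the vacuolar proton pump, Hmox1, which encodes heme oxygenase 1, Adam8, a membrane metalloprotease, Slc6a8, the creatine transporter, Igf2r, the mannose 6-phosphate receptor, and Rnf128, a ubiquitin ligase. Atp6v0d2 stood at 1.92, 1.58, 0.815 and 0.881 CPM in members and 57.6, 32.7, 20.7 and 8.57 CPM in class II-low macrophages (log2 change -4.14, SE 0.27, edgeR adjusted p = 0.000721). Between 80.6% and 100% of its UMIs in class II-low macrophages lay in 10 cells, and 6.09% to 19.1% of these macrophages held any. It was the only 1 of these 15 that passed in every fit that left out a library. Hmox1 stood at 121, 130, 138 and 177 CPM against 1632, 828, 331 and 668 CPM, and 10 class II-low macrophages held 73.7%, 87.3%, 59.2% and 44.5% of its UMIs. The other named genes were Cspg4, Fabp5, S100a8, Saa3, an acute phase protein, Cbr2, a carbonyl reductase of resident macrophages, and Ahnak2, with log2 changes of -3.40, -2.43, -2.35, -2.20, -1.95 and -1.85. In each library 10 class II-low macrophages held 78.7% to 100% of Cspg4, 63.6% to 77.8% of Fabp5 and 99.2% to 100% of Saa3 UMIs. For Cbr2 it was 44.2% to 85.5% and for Ahnak2 45.1% to 89.2%. Among 18 hypoxia and glycolysis genes 2 fell, Hmox1 and the glucose transporter gene Slc2a1, and 0 to 4 fell with one library left out, the fewest without Cre+ replicate 2 and the most without Cre+ replicate 4.

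Some cell cycle genes were lower in members. Of 20 tested, 8 fell and none rose, with a median log2 change of -0.50. Stmn1, a microtubule regulator of dividing cells, stood at 119, 78.6, 176 and 306 CPM in members and 230, 183, 291 and 384 CPM in class II-low macrophages. Mki67, the proliferation marker, stood at 63.0, 35.9, 84.0 and 103 CPM against 111, 51.2, 160 and 118 CPM and did not pass (adjusted p = 0.0672). The summed level of the list was 1154, 844, 1442 and 2071 CPM in members and 1809, 1583, 2150 and 2707 CPM in class II-low macrophages, lower in members of every library but highest in both classes of Cre+ replicate 4. No cell cycle gene passed without Cre- replicate 1, Cre+ replicate 2 or Cre- replicate 3, and 11 passed without Cre+ replicate 4.

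Most of the remaining lists showed few changes. Among 18 Fc receptor and phagocytosis genes, Fcgr4, a receptor for IgG, and Axl rose, and Msr1, the class A scavenger receptor, Gas6 and Stab1 fell. Without Cre- replicate 1 or Cre- replicate 3, 1 of the list rose. Msr1 stood at 166, 89.6, 88.7 and 140 CPM in members and 462, 299, 191 and 400 CPM in class II-low macrophages. Of 16 complement genes outside the rule, only Itgax rose and only Itgam fell. Neither passed without Cre- replicate 1, and none fell without Cre+ replicate 2. Of 14 monocyte genes Lyz1 rose and Hp fell, but none passed without Cre- replicate 1 or Cre+ replicate 2, 1 fell without Cre- replicate 3, and 5 rose without Cre+ replicate 4. Of 7 dendritic cell genes tested Batf3 and Naaa, a lysosomal amidase, rose, and 1 of the list rose without Cre- replicate 1 or Cre- replicate 3. Batf3 stood at 41.9, 52.6, 46.7 and 43.8 CPM in members and 18.6, 24.3, 21.6 and 26.9 CPM in class II-low macrophages, and was also the most abundant of the 8 dendritic cell markers, of which 2 were tested. None of the 2 B cell, 4 epithelial, 4 fibroblast and 3 endothelial markers tested passed.

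Depth and transcripts of other cells also differed between the classes. The median number of UMIs per cell was 12219.5, 13610, 18172 and 18472 in members and 18615, 18801, 22578 and 22367.5 in class II-low macrophages, lower in members of every library. With all cells thinned to 2000 UMIs, 13 immediate early genes of 18 tested rose, 10 lipid-associated genes of 18 and 6 resident genes of 9 fell, and 5 class II pathway genes of 10 rose. Fibroblast markers summed to 333, 681, 601 and 71.6 CPM in members and 134, 2685, 1607 and 35.1 CPM in class II-low macrophages. Col3a1 was the most abundant of them in members of replicates 1 to 3, at 212, 345 and 348 CPM, and Dcn in replicate 4, at 24.5 CPM. Col1a1 had 83.8% to 89.0% of its UMIs in 10 members of each library. Neutrophil markers summed to 106, 38.9, 26.0 and 19.1 CPM in members and 336, 36.9, 142 and 36.6 CPM in class II-low macrophages, and 2 of 3 tested fell, including the named gene S100a8. None of them fell without Cre- replicate 1 and 1 without Cre+ replicate 2 or Cre- replicate 3, and 10 class II-low macrophages of each library held 84.9% to 100% of its S100a8 UMIs. T and NK cell markers summed to 1.7, 1.9, 2.8 and 29.7 CPM in members and 2.6, 5.9, 1.3 and 261 CPM in class II-low macrophages, and none was abundant enough to be tested. With fibroblast and neutrophil markers limited to fewer than 5 UMIs per 10000, 615 genes were higher and 523 lower. Their part in single results was not tested.

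Within the members, class II level itself covered a range, and other genes changed along it. Cells were divided at 200, 400 and 800 class II UMIs per 10000, and the genes shown were chosen after their values were seen, so these values are descriptions. Ciita stood at 149 against 31.7, 121 against 22, 114 against 23.2 and 87.4 against 12.6 CPM in the highest against the lowest range of replicates 1 to 4. Ctsd stood at 859 against 3562, 879 against 4191, 810 against 2522 and 594 against 1433 CPM. Lgals1 stood at 135 against 1156, 129 against 993, 333 against 1241 and 242 against 944 CPM. The direction was thus the same in all 4 mice for these 3 genes. Apoe, which did not pass between the classes, stood higher in the highest range than in the lowest, at 38779 against 20752, 48531 against 29342, 35207 against 25980 and 39746 against 13035 CPM. The share of members in the highest range was 11.1%, 22.6%, 7.37% and 6.502%. The ranges of a library share its mouse and handling but not the depth per cell. In replicates 1 to 4 the lowest range had a median of 14255, 12756, 20747 and 21170.5 UMIs per cell. The highest range had 9885.5, 13628, 15630 and 11841. The part of depth in these values was not tested, and the class II genes are part of every cell's total.

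**Figure D4:**
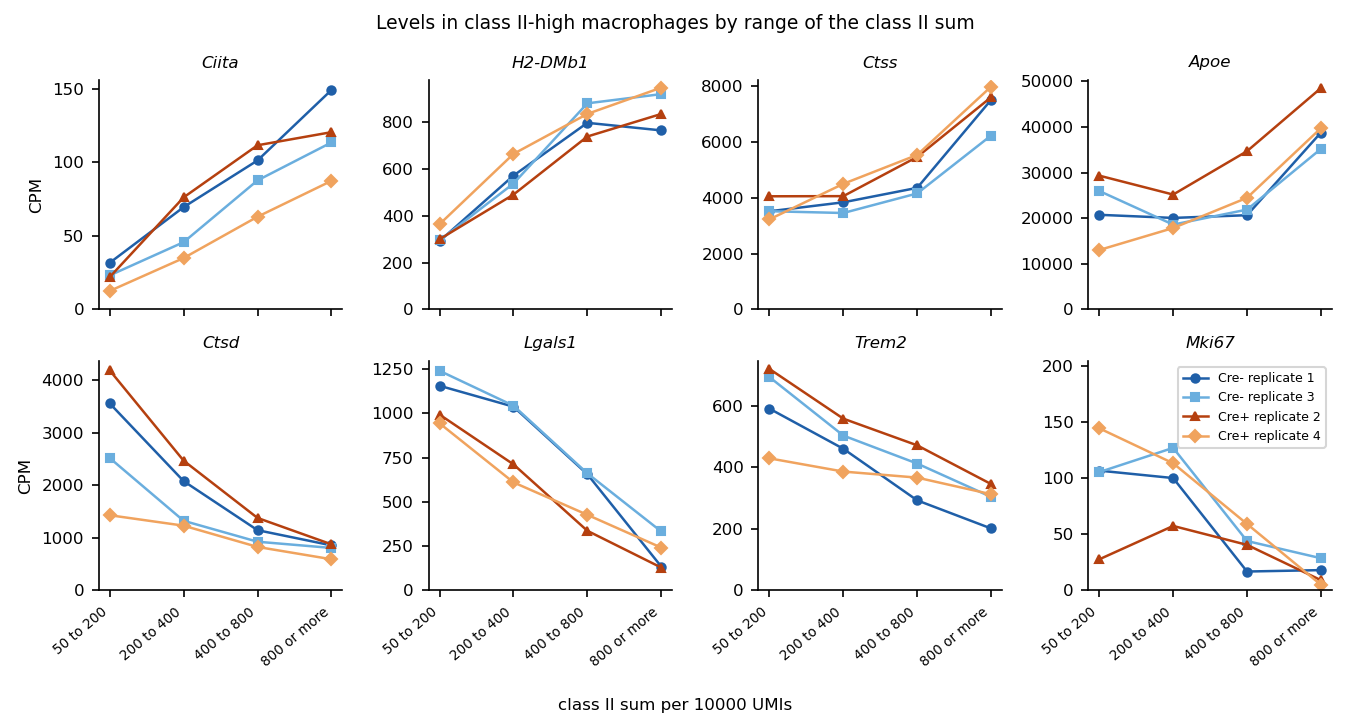
CPM of 8 genes over 4 ranges of the class II sum (50 to 200, 200 to 400, 400 to 800 and at least 800 UMIs per 10000) in members, with 1 line per library. Ciita is higher in each higher range, and Ctsd and Lgals1 are lower in the highest than in the lowest range, in all 4 libraries.

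The comparison of the genotypes asked whether members differed between tumors of Cre- and Cre+ mice. Members made up 8.80% (exact 95% binomial interval 7.99 to 9.66) and 11.02% (10.2 to 11.9) of kept barcodes in the Cre- tumors, and 14.4% (13.5 to 15.4) and 16.01% (15.1 to 17.0) in the Cre+ tumors. The Cre+ share was higher, 15.2% ± 1.13 against 9.91% ± 1.57 (SD, n = 2 mice each), and the groups did not overlap, but the exact two-sided permutation test gave p = 0.333, the smallest that 2 against 2 mice allow. Without cells holding a UMI of any of 20 dendritic, B, T and NK cell markers, the shares were 2.51% and 2.34% in Cre- tumors and 2.89% and 3.72% in Cre+ tumors, a difference of 0.877 percentage points in place of 5.30. That limit left 113, 149, 121 and 225 members in replicates 1 to 4, so the shares themselves were lower, and without a UMI of 12 defining markers the difference was 5.20 percentage points. Among members and class II-low macrophages together, members made up 74.4% (70.5 to 78.1) and 74.8% (71.6 to 77.9) in Cre- tumors and 92.7% (90.6 to 94.4) and 75.6% (73.2 to 78.0) in Cre+ tumors. Here Cre+ replicate 2 stood apart, and Cre+ replicate 4 lay within the intervals of the Cre- tumors. The means were 84.1% ± 12.03 and 74.6% ± 0.260, a difference of 9.53 percentage points (exact permutation p = 0.333). Intervals cover counting error only, and sorting before capture can change the shares.

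**Figure D5:**
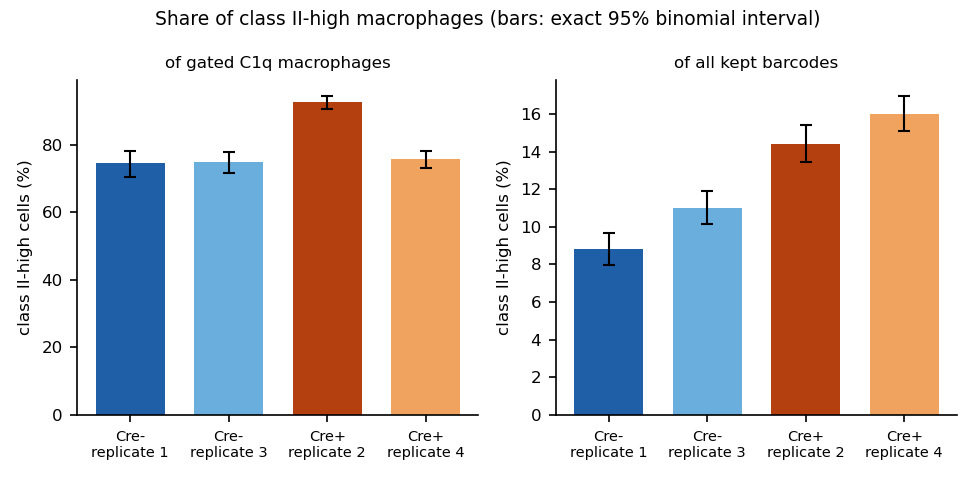
Members as a percent of kept barcodes and of gated macrophages in each library, with exact 95% binomial intervals. Both Cre+ tumors are higher as a share of kept barcodes. As a share of gated macrophages Cre+ replicate 2 stands apart, and Cre+ replicate 4 lies within the intervals of the Cre- tumors.

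No gene passed between Cre+ and Cre- members in edgeR's quasi-likelihood test of 11916 genes (0%), where 252 had an unadjusted p under 0.05, and DESeq2 called 5 higher and 11 lower. CPM was higher in both Cre+ libraries than in both Cre- libraries for 6.61% of genes and lower for 21%. These shares are of plain CPM, whereas the fitted changes, which are scaled, had a median of 0.032 on the log2 scale. Leaving out a library left 1 mouse in a genotype, so the spread then came from the other genotype alone. Without Cre+ replicate 2, the only Cre+ library left was the one processed with the other software version. Such fits therefore cannot show how far the count rested on a library. Frmd8, the floxed gene, stood at 25.6 and 22.6 CPM in members of Cre- mice and 15.8 and 12.4 CPM in members of Cre+ mice, a log2 change of -0.65 (SE 0.20, unadjusted p = 0.017, adjusted p = 1). The kit tags the 3' ends of transcripts and the floxed exons are internal, so these counts do not show directly whether the exons were removed. In epithelial barcodes Frmd8 stood at 24.5 and 24.5 CPM against 5.7 and 11.3 CPM, and in T cell barcodes at 63.7 and 55.5 against 32.8 and 29.7 CPM.

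FRMD8 holds the rhomboid-like proteins iRhom1 and iRhom2 at the cell surface, where they carry the protease ADAM17, which releases TNF. Rhbdf2, which encodes iRhom2, stood at 32.4 and 22.9 CPM in members of Cre- mice and 22.6 and 27.2 CPM in those of Cre+ mice. Adam17 stood at 127 and 101 against 113 and 79.7 CPM, and Tnf at 227 and 486 against 312 and 253 CPM. For each of the 3 genes the genotypes overlapped. Between the classes, Tnf rose in members (log2 change 0.92, SE 0.11, edgeR adjusted p = 0.00596), with 227, 312, 486 and 253 CPM against 141, 142, 279 and 171 CPM. Isg15, a type I interferon response gene, stood at 416 CPM in members of Cre+ replicate 4 and at 130, 131 and 101 CPM in replicates 1, 2 and 3. It was high in the same library in class II-low macrophages, at 411 CPM, and in epithelial barcodes, at 260 CPM, so its level moved with the library and not with the members alone.

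Whether the difference between the classes itself depended on genotype was tested with an interaction of class and genotype. It passed for 4 of 11924 genes (0.0335%), none of them a gene of the class II pathway. Igfbp3, an insulin-like growth factor binding protein, and Gpihbp1, a lipase anchor of capillary endothelium, were relatively higher in members of Cre+ mice. The hemoglobin genes Hba-a1 and Hbb-bt were relatively lower. Igfbp3 stood at 3.66 and 9.60 CPM in members of Cre- mice against 24.9 and 165 CPM in their class II-low macrophages, and at 10.2 and 33.5 against 3.35 and 4.90 CPM in Cre+ mice. In class II-low macrophages of Cre- mice 1 barcode held 63 of its 67 UMIs in replicate 1 and 510 of 739 in replicate 3, and 1 member barcode held 318 of 647 in Cre+ replicate 4. Of the Hba-a1 UMIs, 1 member barcode held 730 of 731 in Cre- replicate 3, and 1 class II-low barcode held 1110 of 1123 in Cre+ replicate 4. For Hbb-bt, 1 barcode held all 217 and 621 of 634 in the same sums, so both calls rested on 1 barcode in each. All 4 genes are typical of endothelial, stromal or red blood cells.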

How the data were processed

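Single-cell suspensions of 4 mammary tumors were sorted by the authors and profiled with the 10x 3' v3 kit, 1 library per mouse. The deposited matrices hold raw UMI counts per gene and barcode, made with Cell Ranger 6.1.2 (replicates 1 to 3, filtered barcodes) or Cell Ranger 4 (replicate 4, all barcodes). Per the labels the build was hg38, although all 32285 genes are mouse genes.

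Members, lists and tests were chosen with earlier results of these data known. UMIs were summed per library and class, and the 16 rule genes were removed. Sums were tested with edgeR 4.0.16 (R 4.3.3, TMM, filterByExpr, quasi-likelihood, Benjamini-Hochberg, threshold 0.05), with the library as a block between classes. DESeq2 1.42.0 was an alternative. Both sums of a library come from 1 mouse, and their deviations correlated at 0.36 to 0.67 across genes. P-values measure the spread between mice. Shares were compared by exact permutation. Python 3.11.15, numpy 2.4.6, scipy 1.17.1 and scikit-learn 1.9.0 were used. The fits were tested on simulated data.

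Named genes were the 15 with the largest change in each direction among genes that passed, had the same sign of CPM difference in all 4 libraries and at least 20 CPM in the higher class, without Gm, Rik and ribosomal protein genes. Members of 26 lists, the rule genes among them (345 of 352 genes in the files), Frmd8, Rhbdf2, Adam17 and Tnf were added. Some genes are not reported here. Genes named along the class II range, and genes shown for their concentration in few cells, were chosen after their values were seen. Doublets were not removed in the values given, and removal by simulated doublets was an alternative. Other alternatives changed the gate, the depth, the filter, the normalization or the libraries. Empty barcodes of replicate 4 (at most 100 UMIs) gave the free RNA.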

Additional observations from a re-analysis of the deposited data

Results flagged for a closer look

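The interaction of class and genotype gave 4 genes whose difference between members and class II-low macrophages differed between Cre+ and Cre- mice. Its log2 value was 8.56 for Gpihbp1 and 6.30 for Igfbp3, and -17.1 for Hba-a1 and -15.7 for Hbb-bt (edgeR adjusted p = 0.0282, 0.0186, 0.0131 and 0.0096, 2 mice a genotype). These fitted values are no bounds, since both hemoglobin genes and Gpihbp1 were at 0 in the class II-low sum of at least 1 library. Hba-a1 stood at 66.2 CPM in members of Cre- replicate 3 and 153 CPM in class II-low macrophages of Cre+ replicate 4, and at no more than 2.44 CPM in the other 6 sums. No interaction gene passed without Cre- replicate 3.

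Barcodes of Cre+ replicate 4 with at most 100 UMIs, which no comparison used, held 65.2 C1q UMIs and 88.0 class II UMIs per 10000, above the limits of 10 and 50 that chose the members. In the same library epithelial barcodes held 212 CPM of C1q and 343 CPM of class II transcripts. T cell barcodes held 860 CPM of C1q and 1442 CPM of class II transcripts, compared with 16381 and 33685 CPM in members. The other libraries were deposited without such barcodes, and free RNA was not analysed in them.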

How the results depend on the processing

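Between the classes, 561 genes were higher and 324 lower. With one library left out, 105 to 532 were higher and 36 to 433 lower, the fewest without Cre- replicate 1 and the most without Cre+ replicate 4. A fit with no replicate block, which ignores that both sums come from 1 mouse, gave 91 and 35, and in it no lipid-associated, cell cycle, class I or interferon gamma response gene passed, 1 immediate early gene rose, 4 resident genes fell and 5 class II pathway genes rose. Thinning to 2000 UMIs, which left 6592 genes to test, gave 223 and 133. Leaving out cells with a UMI of 20 dendritic, B, T and NK cell markers gave 164 and 169 of 8025 genes. Without a filter on low counts 900 were higher, 631 were lower with simulated doublets left out, and 523 with fibroblast and neutrophil markers under 5. The other settings (DESeq2, RLE factors, an order-of-magnitude barcode limit for Cre+ replicate 4, upper limits on genes and UMIs, a C1q sum of at least 30, a class II sum of at least 100, and, chosen after seeing the data, no UMI of 12 defining markers) gave 399 to 641 higher and 266 to 409 lower, within 1.5 times the counts given first.

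Between genotypes, leaving out one library gave 0 to 365 genes higher and 0 to 439 lower, and the largest counts came without Cre+ replicate 2. DESeq2 gave 5 and 11, no filter on low counts 107 and 98, and a class II sum of at least 100 or simulated doublets left out gave 1 lower. The interaction gave 0 to 47 higher and 0 to 53 lower with one library left out. DESeq2 gave 6 and 5, no filter 16 and 22, fibroblast and neutrophil markers under 5 gave 4 and 4, upper limits on genes and UMIs 1 and 1, thinning 1 and 4, and simulated doublets left out 0 and 4. None were higher with a C1q sum of at least 30, and none in either direction with the order-of-magnitude limit, a class II sum of at least 100, no UMI of the 20 markers or no UMI of the 12 defining markers. The causes were not tested. The genotype difference of the share of kept barcodes was 5.30 percentage points and was 0.877 without cells holding a UMI of the 20 markers, which left 113 to 225 members a library. It was 4.14 to 6.41 under the other settings.

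Changes that did not pass and turned sign were those of Frmd8 between classes (-0.0027 without Cre+ replicate 2 and -0.38 thinned), Adam17 between classes (-0.046 without cells holding a UMI of the 20 markers), Rhbdf2 between genotypes (-0.21 to 0.18 with one library left out, 0.18 without Cre- replicate 1, 0.12 without Cre+ replicate 2, 0.0073 with the order-of-magnitude limit, 0.0089 with doublets left out and 0.020 with fibroblast and neutrophil markers under 5), Adam17 between genotypes (0.071 without Cre+ replicate 4) and Tnf between genotypes (-0.73 without Cre- replicate 1 and 0.49 without Cre- replicate 3). With 2 mice a genotype, no share could pass a permutation test, and Cre+ replicate 2 gave only 59 class II-low macrophages.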

Other observations

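Beside members and class II-low macrophages, the tumors held 742 C1q macrophages with Mmp12, 1390 with the resident genes and 734 class II-high cells under the C1q limit. These groups were set by the same counts, and their values carry no test. Ciita stood at 79.0, 98.7, 59.5 and 38.0 CPM in members of replicates 1 to 4, at 57.6, 82.2, 32.9 and 24.7 CPM in Mmp12 macrophages, at 14.9, 42.2, 26.7 and 8.11 CPM in resident-gene macrophages and at 170, 178, 154 and 118 CPM in class II-high cells under the C1q limit. Members thus lay between the other C1q macrophages and the cells under the C1q limit in every library.

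Members and Mmp12 macrophages also differed in Spp1. The Mmp12 macrophages had no limit on class II, and their class II sum was 39212, 46335, 33547 and 27206 CPM in replicates 1 to 4. Whether the missing limit contributed to the difference was not tested. Spp1 stood at 783, 331, 1262 and 108 CPM in members but at 3615, 6032, 2352 and 1227 CPM in Mmp12 macrophages. Apoe, at 1183 to 1957 CPM in class II-high cells under the C1q limit, stood at 19108 to 35375 CPM in members.

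Itgax, which encodes CD11c, stood at 294, 274, 197 and 221 CPM in members and at 105, 9.90, 17.8 and 16.2 CPM in resident-gene macrophages. Ccr2, at 374, 741, 402 and 217 CPM, was higher in resident-gene macrophages than in members of every library.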
